A study of Mus musculus with 8 samples.

Results

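The 10 genes described here encode the enzymes that cut and trim peptide hormone precursors and the soluble proteins that fill the secretory granule. They are Pcsk1, Pcsk2, Cpe and Pam, their partners Pcsk1n and Scg5, and the granins Chga, Chgb, Scg2 and Scg3. They were taken by name as a list of prohormone processing and granule matrix genes, with no threshold on a measured value, and all 10 were found among the 13725 genes of the deposited expression table. All 10 also passed the filter on low values, a mean log2 CPM above 0 (CPM is the read count of a gene scaled to the size of its library), which kept 12231 genes.

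The RNA came from pancreatic islets of female NOD mice aged 10 weeks, a strain that develops autoimmune diabetes. The mice received PAHSA, lipids in which palmitic acid is joined by an ester bond to hydroxy stearic acids (written PASHA in the sample names), or vehicle. There were 4 PAHSA libraries, numbered 1, 2, 3 and 4, and 4 vehicle libraries, numbered 1, 3, 4 and 5. Dose, route and duration of treatment are not in the labels, and one text speaks of 4 mice per group while the protocol speaks of pools of islets from 2 mice, so p-values measure the spread between libraries only.

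Peptide hormones are made as long precursors. In the acidic granule the endoproteases PC1/3 (Pcsk1) and PC2 (Pcsk2) cut them at paired basic residues, carboxypeptidase E (Cpe) removes the basic residues left at the new end, and Pam adds the C-terminal amide that many peptides need. ProSAAS (Pcsk1n) can inhibit PC1/3, and 7B2 (Scg5) escorts pro-PC2 to the granule. Granins are acidic proteins that bind calcium, aggregate with hormones and help to form granules. In islets PC1/3 and PC2 together turn proinsulin into insulin in beta cells, and PC2 turns proglucagon into glucagon in alpha cells.

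The geometric mean levels of Pcsk1, Pam, Chgb and Scg3 in PAHSA libraries were 0.766, 0.768, 0.807 and 0.826 times those in vehicle libraries, and the levels of Pcsk1n, Chga and Scg2 1.15, 1.12 and 1.09 times. Pcsk2, Cpe and Scg5 had fold changes of 1.003, 0.993 and 1.03. None of the 10 passed an adjusted p of 0.05 in limma, where the smallest adjusted p among them was 0.671, and of all 12231 genes 0 passed (0.0%). At an unadjusted p under 0.05 there were 3 of the 10, Pam, Pcsk1 and Chgb, all lower in PAHSA. Among all genes tested, 894 or 7.31% were at that level, 369 (3.02%) higher and 525 (4.29%) lower in PAHSA. The median difference was -0.0025 over the 10 genes, -0.006 over all genes tested and -0.08 over the 157 genes with a mean log2 CPM above 9, a class that holds all 10.

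Counts at an unadjusted p rested on single libraries and settings. Without vehicle replicate 3 there was 1 of the 10 (Pam, lower), beside 669 of all genes. Without PAHSA replicate 4 there were 1 higher (Pcsk1n) and 4 lower (Chgb, Pam, Pcsk1 and Scg3), beside 361 higher and 607 lower of all genes. In eBayes without a mean-variance trend there were 0 of the 10, beside 803 of all genes. The direction of these counts changed with quantile normalization, but not when libraries were set to equal medians. On the deposited scale 0 of the 10 were higher and 3 lower at an unadjusted p under 0.05. With equal medians the counts and the 3 genes were the same. After quantile normalization, which gives every library the same distribution of values, 3 were higher (Pcsk1n, Pcsk2 and Scg2) and 0 lower, beside 455 higher and 453 lower of all genes. That scaling moved the median difference of the 157 highly expressed genes to 0.09, against -0.08 on the deposited scale, while the median of all genes was at 0.02. Within-library ratios are given after the single genes. A single scaling factor per library has no effect on them, but quantile normalization can change them. They were not recomputed after it.

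**Figure D1:**
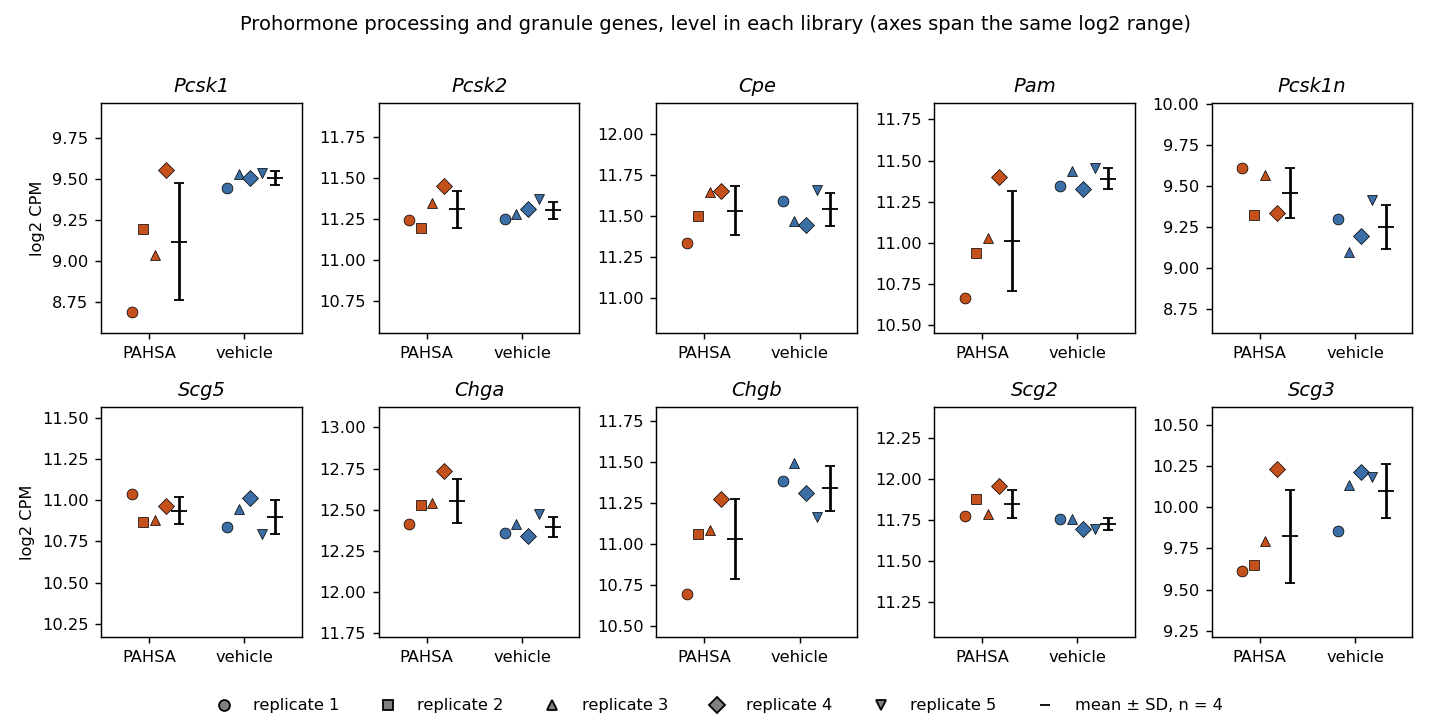
Level of each of the 10 genes in every library, in log2 CPM, with PAHSA on the left and vehicle on the right of each panel. Symbols give the replicate number, and bars the mean and SD of 4 libraries. The labels do not say whether equal numbers pair libraries. All panels span the same log2 range. PAHSA replicate 1 is lowest in 7 panels among the PAHSA libraries and PAHSA replicate 4 highest in 8.

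The promoters of some of these genes hold a cAMP response element, the DNA letters bound by CREB family factors. The sequences are shown as a description, and their part in the differences was not tested. The palindrome TGACGTCA stood in the 250 bases before the RefSeq start of Pcsk1, Chgb and Scg2. It was found in 1.55% of the 32851 windows of the same length in the table, both strands searched. The shorter TGACGT, which lies within the palindrome and reads ACGTCA on the other strand, was found in 5 of the 9 genes with an entry (6.47% of all windows), the same 3 and Scg5 and Chga. Each stretch of 30 bases below is written 5′ to 3′ on the strand of the gene, from RefSeq on GRCm38.p6, with the matched letters in capitals.
Pcsk1, chr13:75089768-75089797, plus strand: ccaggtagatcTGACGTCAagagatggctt
Chgb, chr2:132781559-132781588, plus strand: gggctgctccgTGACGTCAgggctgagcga
Scg2, chr1:79440076-79440105, minus strand: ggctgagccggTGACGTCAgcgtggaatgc
Chga, chr12:102554885-102554914, plus strand: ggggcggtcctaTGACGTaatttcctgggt
Scg5, chr2:113829249-113829278, minus strand: aaaggaggtaaaTGACGTtcataggggtcg
The palindrome began 78 bases before the start in Pcsk1, 72 in Chgb and 68 in Scg2. In Chgb and Scg2 the outermost start in GENCODE release M21 lies 364 and 94 bases upstream of the RefSeq start, so that there the matched letters fall inside the annotated gene. Pcsk1 held a further TGACGT 50 bases before its start. Of the 3 genes with the palindrome, Pcsk1 and Chgb had lower means in PAHSA and Scg2 a higher one. For Pcsk2, Pcsk1n, Scg3 and Pam neither set of letters was in the window.

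Pcsk1 (ENSMUSG00000021587, chromosome 13 from 75089826 to 75134861 in GRCm38, positions here and below from GENCODE M21) encodes PC1/3, the convertase that makes the first cut in proinsulin. Its log2 CPM was 8.69, 9.20, 9.04 and 9.55 in PAHSA replicates 1 to 4, against 9.45, 9.53, 9.50 and 9.54 in vehicle replicates 1, 3, 4 and 5, the order used for all genes here. PAHSA replicates 1, 2 and 3 lay below every vehicle library and PAHSA replicate 4 above all of them, so the groups overlapped. The means were 9.12 ± 0.36 in PAHSA and 9.50 ± 0.04 in vehicle (SD, n = 4 each). The difference was -0.39 (SE 0.15, 95% confidence interval -0.72 to -0.05), with a limma adjusted p of 0.671. Without PAHSA replicate 1 it was -0.24, and without PAHSA replicate 4 it was -0.53.

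Pcsk2 (ENSMUSG00000027419, chromosome 2 from 143546156 to 143816285) encodes PC2. Its values were 11.24, 11.20, 11.35 and 11.45 log2 CPM in PAHSA and 11.25, 11.28, 11.31 and 11.37 in vehicle. The vehicle libraries lay within the PAHSA range. The difference of 0.005 (SE 0.08) had a 95% confidence interval from -0.17 to 0.18. The sign of this difference changed in 7 of 18 alternatives. The span of the gene overlaps the antisense genes Pcsk2os1 and Pcsk2os2 in the annotation. Whether their exons overlap was not checked. The spans of Pcsk1n, Scg3 and Pam also overlap other annotated genes.

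Cpe (ENSMUSG00000037852, chromosome 8 from 64592542 to 64693054) encodes carboxypeptidase E. Its values were 11.34, 11.50, 11.64 and 11.65 log2 CPM in PAHSA and 11.59, 11.47, 11.45 and 11.66 in vehicle. Only PAHSA replicate 1 lay outside the vehicle range, below it. The difference was -0.01 (SE 0.09, 95% confidence interval -0.22 to 0.20), with a sign that changed in 7 of 18 alternatives, quantile normalization among them (0.27).

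Pam (ENSMUSG00000026335, chromosome 1 from 97795114 to 98095646) encodes the amidating enzyme, which acts on amylin among the islet peptides. Its values were 10.67, 10.94, 11.03 and 11.40 log2 CPM in PAHSA, against 11.34, 11.44, 11.33 and 11.45 in vehicle. As for Pcsk1, PAHSA replicates 1, 2 and 3 were below all vehicle libraries, and PAHSA replicate 4 was inside the vehicle range. The means were 11.01 ± 0.30 in PAHSA and 11.39 ± 0.06 in vehicle (SD, n = 4 each), a difference of -0.38 (SE 0.13, 95% confidence interval -0.67 to -0.09). Its unadjusted p of 0.0163 by limma was the smallest of the 10 genes. After quantile normalization the difference was -0.10. Without PAHSA replicate 1 the difference was -0.27, and with the mean of acinar markers as a covariate it was -0.55.

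Among the partners of the convertases, Pcsk1n (ENSMUSG00000039278, chromosome X from 7919822 to 7924410), which encodes proSAAS, was at 9.61, 9.32, 9.57 and 9.33 log2 CPM in PAHSA and at 9.30, 9.10, 9.20 and 9.41 in vehicle. Here PAHSA replicates 1 and 3 were above every vehicle library and the other PAHSA libraries inside the vehicle range. The difference was 0.21 (SE 0.10, 95% confidence interval -0.02 to 0.43; limma adjusted p = 0.708), and 0.37 after quantile normalization. The gene overlaps Eras in the annotation. Scg5 (ENSMUSG00000023236, chromosome 2 from 113776362 to 113829121), which encodes 7B2, was at 11.04, 10.87, 10.88 and 10.97 in PAHSA and at 10.84, 10.95, 11.02 and 10.80 in vehicle. Its groups overlapped, with only PAHSA replicate 1 above the vehicle range and a difference of 0.04 (SE 0.08, 95% confidence interval -0.14 to 0.22).

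The 4 granins did not differ in one direction. Chga (ENSMUSG00000021194, chromosome 12 from 102554969 to 102565028) encodes chromogranin A, the precursor of several peptides and of an antigen recognised by T cells of NOD mice. Its values were 12.41, 12.53, 12.54 and 12.74 log2 CPM in PAHSA and 12.36, 12.41, 12.34 and 12.47 in vehicle. All PAHSA libraries but replicate 1 were above the highest vehicle library. The difference was 0.16 (SE 0.09, 95% confidence interval -0.04 to 0.35; limma adjusted p = 0.730). Without PAHSA replicate 4 it was 0.0978, and with the acinar covariate 0.0778.

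Chgb (ENSMUSG00000027350, chromosome 2 from 132781278 to 132795079) encodes chromogranin B, which in mice is needed for normal insulin release. Chgb values were 10.69, 11.06, 11.08 and 11.28 log2 CPM in PAHSA, against 11.38, 11.49, 11.31 and 11.17 in vehicle. PAHSA replicates 1, 2 and 3 lay below the vehicle range, and PAHSA replicate 4 above vehicle replicate 5. The means were 11.03 ± 0.24 in PAHSA and 11.34 ± 0.14 in vehicle (SD, n = 4 each), a difference of -0.31 (SE 0.12, 95% confidence interval -0.58 to -0.04; limma adjusted p = 0.671). The difference was -0.20 without PAHSA replicate 1 and 0.0025, the other way, after quantile normalization.

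Scg2 (ENSMUSG00000050711, chromosome 1 from 79434669 to 79440120) encodes secretogranin II, the precursor of secretoneurin. It was the only one of the 10 genes whose groups did not overlap, at 11.77, 11.88, 11.79 and 11.96 log2 CPM in PAHSA and 11.76, 11.76, 11.70 and 11.70 in vehicle. Such a separation was seen in 490 of all genes tested (4.01%), higher in PAHSA in 2.06% and lower in 1.95%. A count of 1 gene of 10 is too small to be told apart from that share. The gap between the highest vehicle and the lowest PAHSA library was small beside the spread of the PAHSA libraries. The difference was 0.12 (SE 0.07, 95% confidence interval -0.04 to 0.29; limma adjusted p = 0.752). With the acinar covariate it was 0.0681, and after quantile normalization 0.38.

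Scg3 (ENSMUSG00000032181, chromosome 9 from 75643189 to 75684056) encodes secretogranin III, which binds chromogranin A and the cholesterol-rich granule membrane. Scg3 values were 9.62, 9.65, 9.80 and 10.23 log2 CPM in PAHSA and 9.86, 10.14, 10.22 and 10.18 in vehicle. PAHSA replicates 1, 2 and 3 were below all vehicle libraries, and PAHSA replicate 4 was above them. The difference was -0.28 (SE 0.14, 95% confidence interval -0.58 to 0.03; limma adjusted p = 0.708), -0.41 without PAHSA replicate 4 and -0.10 after quantile normalization.

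**Figure D2:**
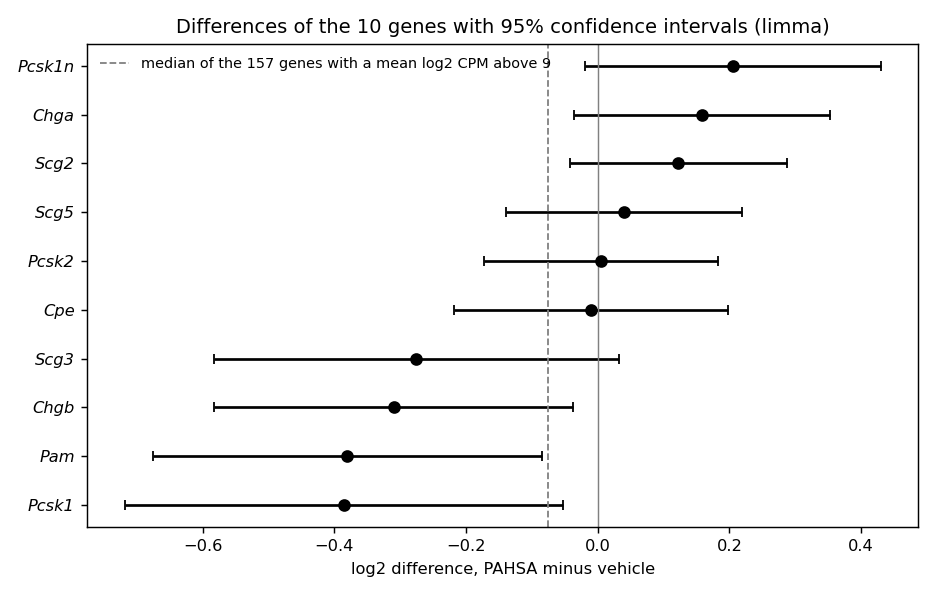
Differences between PAHSA and vehicle (PAHSA minus vehicle, log2 scale) of the 10 genes, with 95% confidence intervals from limma over 4 libraries per group. The dashed line marks -0.08, the median of the 157 genes with a mean log2 CPM above 9. The intervals of Pcsk1, Pam and Chgb lie below 0, and the other 7 hold 0. They assume the same spread in both groups, which the SDs of several of these genes do not show.

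The PAHSA libraries spread more widely than the vehicle libraries in 9 of the 10 genes. The ratio of the SDs was 8.55 for Pcsk1 and 4.74 for Pam, and its median over the 10 genes was 1.99. The PAHSA SD was the larger one in 58.1% of all genes tested and in 73.9% of the 157 highly expressed genes, with median SD ratios of 1.16 and 1.55. The limma fit used a common variance for both groups of a gene. Its intervals and p-values therefore do not take the unequal spread into account. PAHSA replicate 1 was the lowest PAHSA library in 7 of the 10 genes, and in 45.2% of the highly expressed genes against 24.2% of all genes. PAHSA replicate 4 was the highest in 8 of the 10, and in 36.3% of the highly expressed genes.

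Transcript length and library content are described next to these values. In PAHSA replicate 1 the median deviation from the mean of 8 libraries was -0.20 for the 70 highly expressed genes with a longest transcript of 2000 to 4000 bases, -0.19 for the 29 longer ones and -0.02 for the 58 shorter ones. In the other PAHSA libraries these medians lay between -0.06 and 0.06, and in the vehicle libraries between -0.07 and 0.13. Over all genes tested no such drop was seen in PAHSA replicate 1. There its medians were 0.056 under 2000 bases, 0.035 at 2000 to 4000 and 0.02 over 4000. The longest annotated transcript has 5040 bases for Pcsk1, 4723 for Pcsk2 and 4102 for Pam, but 1208 for Scg5 and 1883 for Chga. It has 2117 for Cpe, 2193 for Pcsk1n, 2384 for Scg3, 2515 for Scg2 and 2740 for Chgb. The sum of 30 acinar markers, digestive enzymes of the surrounding gland, was 0.0608% to 2.07% of CPM in PAHSA and 1.38% to 5.46% in vehicle, with the lowest value in PAHSA replicate 4, and all 28 tested markers of the list were lower in PAHSA, 21 of them at an unadjusted p under 0.05. Duct cell markers summed to 0.347% to 0.443% of CPM in PAHSA and 0.424% to 0.618% in vehicle. Of 9 tested duct markers 7 were lower in PAHSA, 4 of them at an unadjusted p under 0.05 (Spp1, Muc1, Krt8 and Krt19), and 2 were higher. Beside the acinar and duct lists, 4.29% of all genes tested were lower at that level. The part of length, acinar or duct content or of these libraries in the differences was not tested beyond the alternatives given. The acinar marker mean used as a covariate was 3.25 log2 CPM in PAHSA replicate 4 and 6.65 to 10.01 in the other libraries. As the markers were lower in PAHSA, a fit with that covariate cannot fully separate acinar content from treatment.

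The ordering of levels was compared per kilobase of the longest annotated transcript. Chga was highest, at 3205 ± 305 CPM per kilobase in PAHSA and 2864 ± 119 in vehicle (SD, n = 4 each). Scg5, Scg2 and Cpe followed, at 1626, 1469 and 1404 CPM per kilobase in PAHSA and 1583, 1348 and 1411 in vehicle. Their ranges over 8 libraries overlapped, from 1472 to 1740 for Scg5, 1319 to 1579 for Scg2 and 1220 to 1527 for Cpe. Chgb came next at 770 ± 124 in PAHSA and 948 ± 89.9 in vehicle, all 8 of its libraries below those of Cpe, and overlapped with Pam in range, though above it in each library. Pam and Pcsk2 then changed places between the groups, at 511 and 538 in PAHSA and 655 and 535 in vehicle. Scg3 (386 in PAHSA, 462 in vehicle) overlapped with both neighbours in the order. Pcsk1n (322 in PAHSA, 279 in vehicle) was above Pcsk1, the lowest at 113 ± 27.9 in PAHSA and 144 ± 4.12 in vehicle. Over the union of all annotated exons instead, Chga stayed first and Pcsk1 last, and Pam moved to place 9. The 10 genes together took 2.13% to 2.66% of CPM in PAHSA and 2.35% to 2.43% in vehicle.

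Within a library, Pcsk1 was lower relative to Pcsk2 in every PAHSA library. The log2 ratio of Pcsk1 to Pcsk2 CPM was -2.55, -2.0, -2.31 and -1.90 in PAHSA, against -1.81, -1.75, -1.81 and -1.84 in vehicle. The vehicle ratios lay within a narrow band and all PAHSA ratios below it, by 0.39 on average. For Pcsk1 relative to its inhibitor gene Pcsk1n the log2 ratio was -0.92, -0.13, -0.53 and 0.22 in PAHSA and 0.15, 0.43, 0.31 and 0.13 in vehicle, with PAHSA replicate 4 inside the vehicle range. Pcsk2 relative to the 7B2 gene Scg5 was at 0.20, 0.33, 0.47 and 0.48 in PAHSA and 0.42, 0.34, 0.29 and 0.58 in vehicle, and the groups overlapped.

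Granins also differed relative to each other. The log2 ratio of Chgb to Chga was -1.72, -1.47, -1.46 and -1.46 in PAHSA and -0.97, -0.92, -1.03 and -1.31 in vehicle. All 4 PAHSA ratios were below the vehicle ratios. For Scg2 over Chgb the ratio was 0.68 to 1.08 in PAHSA and 0.27 to 0.53 in vehicle, and for Pam over Cpe -0.67 to -0.25 in PAHSA and -0.25 to -0.03 in vehicle. Of all 45 pairs of the 10 genes, 11 (24.4%) did not overlap between groups, against 7.68% of the 12246 pairs among the 157 highly expressed genes. Chga took part in 5 of the 11, Pam in 4, and Pcsk1, Pcsk2 and Scg2 in 3 each. Pairs that share a gene are not independent, the ratios were picked out after their values were seen, and no test was made of them.

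**Figure D3:**
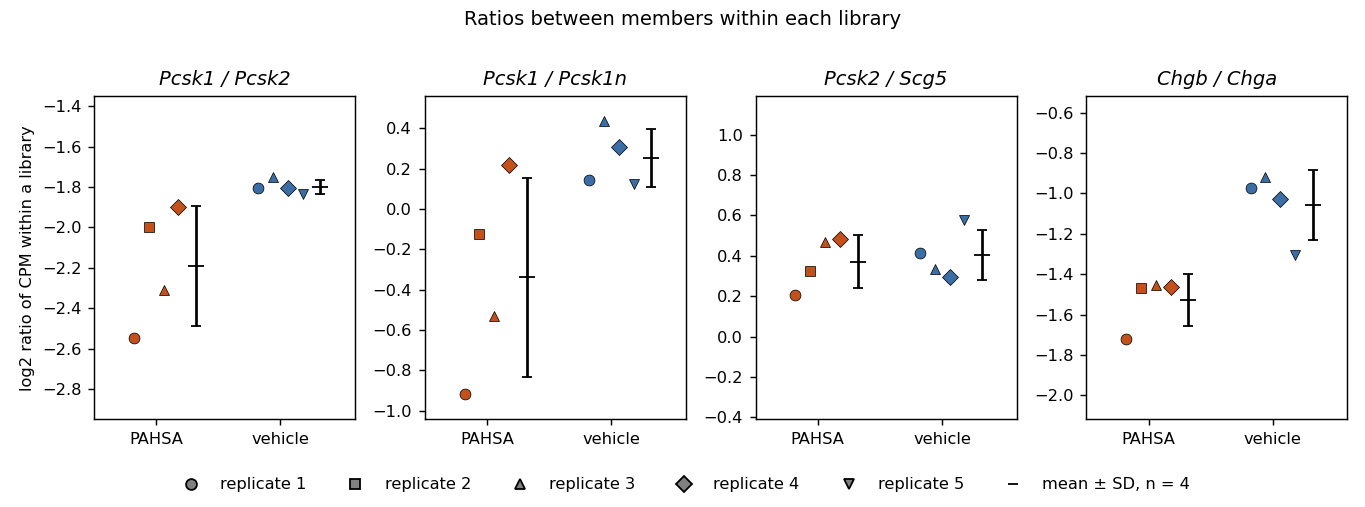
Log2 ratios of CPM between pairs of genes within each library, PAHSA left and vehicle right, with the mean and SD of 4 libraries. The Pcsk1 to Pcsk2 and Chgb to Chga ratios of PAHSA all lie below those of vehicle, whereas the Pcsk1 to Pcsk1n and Pcsk2 to Scg5 ratios overlap.

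Over the 8 libraries the level of Pcsk1 was followed most closely by Pearson r, among the other 9 genes, by that of Pam (r = 0.966, Spearman rho = 0.881), while Scg3 had the highest rho. Without PAHSA replicates 1 and 3, the libraries farthest from the median of Pcsk1, r was 0.977 over 6 libraries. Chgb (r = 0.893, rho = 0.595) and Scg3 (r = 0.851, rho = 0.905) came next, with r of 0.612 and 0.927 over the 6 libraries. Chga (r = 0.0764) and Scg2 (r = -0.0567) did not follow Pcsk1, and Pcsk1n was opposite (r = -0.793, and -0.172 over 6 libraries). Of all other genes tested the 5 most like Pcsk1 were Pgam1, the glycolytic phosphoglycerate mutase (r = 0.992), Mydgf, a secreted factor (0.984), Sik1, a cAMP-induced kinase (0.974), Dcaf1, a ubiquitin ligase adaptor (0.972), and Tpi1, triosephosphate isomerase (0.969). These are the top of 12231 correlations, given as a description. Their own log2 differences between PAHSA and vehicle were -0.48 for Pgam1, -0.16 for Mydgf, -1.04 for Sik1, -0.28 for Dcaf1 and -0.43 for Tpi1.

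Other processing enzymes were compared as a list of 25, of which 21 were tested. In PAHSA 7 were higher and 14 lower, with a median log2 difference of -0.07, and 0 passed over all genes. At an unadjusted p under 0.05 there were 0 higher and 4 lower, beside 3.02% higher and 4.29% lower of all genes tested. Ctsl, the lysosomal cathepsin L that also cuts some prohormones, was at 9.54, 9.96, 9.57 and 9.81 log2 CPM in PAHSA and at 10.22, 10.32, 10.17 and 9.74 in vehicle, a difference of -0.39 (SE 0.14). Cyb561, the granule membrane cytochrome that supplies electrons for ascorbate, the cofactor of Pam, was at 7.60, 7.98, 7.54 and 7.58 in PAHSA and at 7.82, 7.995, 8.05 and 7.93 in vehicle, a difference of -0.27 (SE 0.12). All PAHSA libraries but replicate 2 were below the vehicle range. Pcsk7, a convertase of the constitutive pathway named after its values were seen, differed by -0.45 (SE 0.20).

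Aebp1, a carboxypeptidase-like protein of matrix-forming cells, was at -4.61, 0.72, -0.01 and 2.78 log2 CPM in PAHSA and at 3.24, 3.08, 2.72 and 2.56 in vehicle, a difference of -3.18 (SE 1.26; -1.74 without PAHSA replicate 1). Of the 12 stellate cell, fibroblast and pericyte markers, 10 were tested, 9 lower and 1 higher, and their sum was 0.0043% to 0.015% of CPM in PAHSA and 0.00859% to 0.0322% in vehicle. The part of those cells in the Aebp1 difference was not tested. Furin, the convertase of the Golgi, differed by -0.01 (SE 0.15) and Cpd, a carboxypeptidase of the Golgi, by -0.35 (SE 0.16).

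Of 32 other granule matrix and granule biogenesis genes, all tested, 15 were higher and 17 lower in PAHSA, with a median difference of -0.04. None passed over all genes. At an unadjusted p under 0.05, 3 were lower and 0 higher, beside 4.29% and 3.02% of all genes tested. Vgf, a granin-like precursor of several peptides, was at 7.13, 7.06, 6.98 and 7.72 log2 CPM in PAHSA and at 7.43, 7.71, 7.72 and 7.87 in vehicle, a difference of -0.46 (SE 0.17; -0.63 without PAHSA replicate 4). As for Pam, PAHSA replicates 1, 2 and 3 were below the vehicle range and PAHSA replicate 4 inside it. Tmed2, a cargo receptor of vesicles between the endoplasmic reticulum and the Golgi, was the 1 gene of the list without overlap. Such a separation, in either direction, was seen in 4.01% of all genes tested. Tmed2 was at 9.49 to 9.83 in PAHSA and 9.88 to 10.01 in vehicle (difference -0.27, SE 0.09, and -0.11 after quantile normalization). Sort1, the sorting receptor sortilin, differed by -0.30 (SE 0.14). Ptprn, the granule membrane protein IA-2 and an autoantigen of human type 1 diabetes, differed by -0.06 (SE 0.13).

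Of 21 prohormone genes, the substrates of these enzymes, 16 were tested, with 6 higher and 10 lower in PAHSA and a median difference of -0.12. None passed over all genes. At an unadjusted p under 0.05, 1 was higher and 3 were lower, beside 3.02% and 4.29% of all genes tested. Ucn3 encodes urocortin 3, which mature beta cells secrete. It had 7.49, 7.39, 7.42 and 7.05 log2 CPM in PAHSA and 6.95, 6.39, 6.38 and 6.54 in vehicle. The difference was 0.77 (SE 0.15), with no overlap, as in 4.01% of all genes tested in either direction. Gal, the precursor of galanin, was at 3.87 to 4.25 in PAHSA and 4.16 to 5.24 in vehicle (difference -0.84, SE 0.26). Tac1, the precursor of substance P, was at -0.89 to 2.67 in PAHSA and 2.51 to 3.71 in vehicle (difference -2.26, SE 0.70). Adm, the adrenomedullin precursor named after its values were seen, had low means of -1.18 in PAHSA and 1.99 in vehicle. The groups of Adm also did not overlap, with a difference of -3.16 (SE 1.43). The major islet hormones had differences of 0.18 (SE 0.13) for Ins2, 0.08 (SE 0.14) for Ins1 and 0.18 (SE 0.11) for Gcg. With the acinar covariate, not fully separable from treatment, Ins2 was at 0.34 and Ins1 at 0.30, at unadjusted limma p-values of 0.00685 and 0.0277. Without vehicle replicate 4, the highest vehicle library for both genes, Ins2 was at 0.27, then also under the unadjusted threshold, and Ins1 at 0.20, which was not. Markers showed the labelled tissue, with beta cell markers at 14.2% to 17.6% of CPM in PAHSA and 13.7% to 18.0% in vehicle, and alpha cell markers at 6.71% to 8.13% in PAHSA and 6.13% to 7.01% in vehicle. Of 10 tested beta cell markers 8 were higher in PAHSA and 2 lower, 3 of them higher at an unadjusted p under 0.05. Of 10 tested alpha cell markers 8 were higher and 2 lower, 1 of them higher at that level. Of all genes tested, 3.02% were higher at that level. Markers of neurons, Schwann and enterochromaffin cells, other sources of granin RNA, summed to 0.0179% to 0.0229% of CPM in PAHSA and 0.0165% to 0.0179% in vehicle, over 6 of 10 genes. Of 13 lymphocyte markers 2 were in the table, at 0.000109% to 0.000244% in PAHSA and 5.75e-05% to 0.000149% in vehicle. In whole islets, fewer cells of a type and less RNA per cell cannot be told apart.

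Transcription factors known to act on convertase or granin genes made up a list of 18, of which 17 were tested. In PAHSA 11 were higher and 6 lower, with a median difference of 0.12, and none passed over all genes. At an unadjusted p under 0.05, 2 were higher and 1 lower, beside 3.02% and 4.29% of all genes tested. Crem, a factor that binds the cAMP response element shown above, was at 5.68, 6.30, 5.67 and 6.27 log2 CPM in PAHSA and at 6.20, 6.69, 6.29 and 6.63 in vehicle, a difference of -0.48 (SE 0.19). Foxa2, an islet developmental factor, did not overlap between groups (5.86 to 6.22 in PAHSA, 5.14 to 5.85 in vehicle; difference 0.44, SE 0.17). Mafa, which acts on insulin genes, differed by 0.40 (SE 0.16). Nkx6-1, also without overlap and named after its values were seen, differed by 0.38 (SE 0.17). Groups without overlap, in either direction, were seen in 4.01% of all genes tested. Creb1 differed by -0.28 (SE 0.18) and Pax6, which acts on several convertase genes, by -0.13 (SE 0.13). Creb1 and Pax6 were chosen for mention with their values known.

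**Figure D4:**
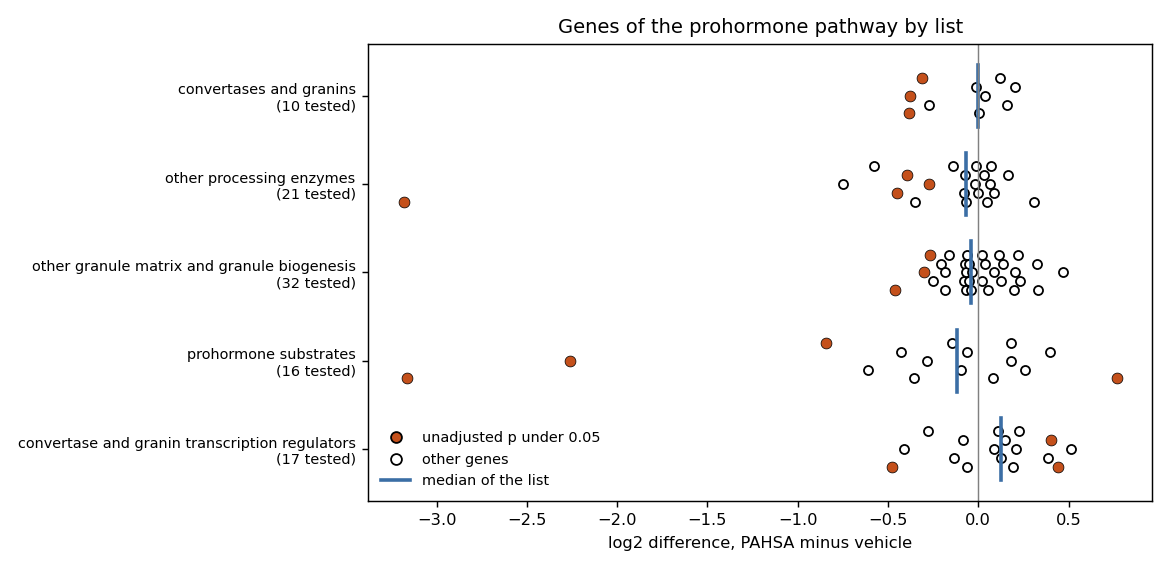
Log2 differences (PAHSA minus vehicle) of every tested gene in the list of convertases and granins and in 4 further lists of the prohormone pathway. Each point is a gene, filled at an unadjusted limma p under 0.05, and the vertical bar is the median of the list. The medians lie between -0.12 (prohormone substrates) and 0.12 (transcription regulators).

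**Figure D5:**
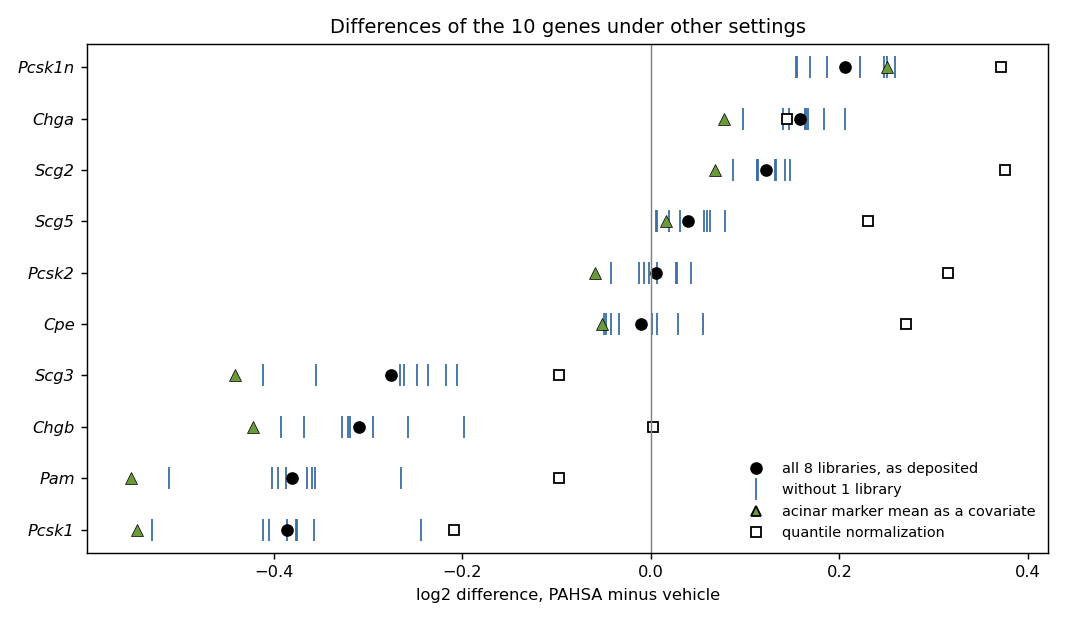
Log2 differences (PAHSA minus vehicle) of the 10 genes on the deposited scale, without 1 library in turn, with the acinar marker mean as a covariate and after quantile normalization. Pcsk1, Pam and Scg3 stay below 0 and Pcsk1n, Chga, Scg2 and Scg5 above 0 in every setting drawn, while Chgb reaches 0.0025 after quantile normalization and Pcsk2 and Cpe lie on both sides of 0.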

How the data were processed

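The deposited table holds log2 CPM for 8 islet libraries; the authors' counts were scaled by an effective library size, as the values show. The tools kallisto, which assigns reads to transcripts by estimation, and limma are named in the submitters' processing notes, with versions, genome build and annotation not given in the sources used here. Libraries were made with Nextera XT, per the labels' protocols, a kit that does not mark strand. From the lowest value of each library, 0.5 added counts were inferred and estimated counts of 35356278 to 39359123 in PAHSA and 34461742 to 45236238 in vehicle recovered, with 15153 or more for each of the 10 genes in every library, so that counting error is small beside the spread between libraries. Between 211 and 298 genes in PAHSA and 59 and 219 in vehicle libraries were at the lowest value.

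Symbols came from GENCODE M21 (13676 of 13725 identifiers matched). Genes with a mean log2 CPM above 0 were fitted with limma 3.58.1 in R 4.3.3 (lmFit, eBayes with trend, two-sided, group as the only term), with Benjamini-Hochberg adjustment over 12231 genes and a threshold of 0.05. Differences are PAHSA minus vehicle on the log2 scale. The fit was also run on simulated data with the same spread in both groups. The changes put in were larger than any difference of the 10 genes, so that run does not bear on them. The 10 genes and all lists were chosen with earlier results of these data known. Besides the 10 genes, the text names the 3 genes with the smallest p of each further list, and always Ins1, Ins2, Gcg, Furin, Cpd, Ptprn and Vgf, and the 5 genes most like Pcsk1. Outside this rule, Pcsk7, Adm, Nkx6-1, Creb1, Pax6 and 4 duct markers were named with their values known.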

Additional observations from a re-analysis of the deposited data

Results flagged for a closer look

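In 28 genes, each with 2 groups of 4 libraries, 4 of the 56 groups held a library far from the other 3, where chance gives about 1 in 20. None of the 10 convertase and granin genes was among them. Cyb561 was at 7.98 log2 CPM in PAHSA replicate 2, against 7.54 to 7.60 in the other PAHSA libraries. Ins1 was at 15.12 in vehicle replicate 4, against 14.62 to 14.68 in the other vehicle libraries, and Ins2 at 16.62 in the same library, against 16.22 to 16.27. Cpd was at 7.26 in vehicle replicate 1, against 6.78 to 6.82 in the other vehicle libraries.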

How the results depend on the processing

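Under 18 alternatives 0 genes passed an adjusted p of 0.05 in each, and the count at an unadjusted p under 0.05 ranged from 669 to 1021 (669 to 968 without 1 library), against 894. Of the 10 genes, 3 were at that level, with 1 to 5 without 1 library (1 without vehicle replicate 3, 5 without PAHSA replicate 4) and 0 in eBayes without trend. The 4 further lists held 14 such genes, with 6 to 14 without 1 library (6 without vehicle replicate 3, 9 without vehicle replicate 1) and 7 without trend. The causes were not tested. Of 503 recomputed differences of single genes, 24 changed sign. Pcsk2 was at -0.0076 with equal medians, -0.0009 with arrayWeights and -0.0595 with the acinar covariate, and at -0.0423 to 0.0428 without 1 library. Cpe was at 0.27 after quantile normalization, 0.0407 in the 6 libraries numbered 1, 3 and 4, with and without the block, and -0.0497 to 0.0554 without 1 library. Chgb was at 0.0025 and Ptprn at 0.0859 after quantile normalization, and Ptprn at -0.15 to 0.0578 without 1 library. Furin was at 0.0591 with the acinar covariate and -0.0832 to 0.0794 without 1 library, and Ins1 at -0.0004 to 0.20. Quantile normalization set Ins2 and Gcg to differences of 0.

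The numbers 1, 3 and 4 occur in both groups. Deviations of same-numbered libraries from their group means correlated at -0.02 in each of 3 pairs, and none of these PAHSA libraries correlated best with its own number. With the number as a replicate block, 3 of the 10 genes were at an unadjusted p under 0.05 (Chgb and Pcsk1 lower, Pcsk1n higher; 2 without the block in the same 6 libraries, Chgb and Pcsk1n). Pam was in neither set, and Ins1 was at -0.0452 with and without the block.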
